A study of Mus musculus with 16 samples.

Results

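The genes described here are 52 synaptic vesicle and active zone genes, found among the 24421 genes of the deposited tables of mouse somatosensory cortex. They were listed by gene name, with earlier results of these data already known, and all 52 were present in each of the 5 tables. They were grouped by role into 3 synapsins, 6 vesicle membrane proteins, 15 calcium sensors, 12 members of the SNARE fusion machinery, 13 active zone and priming proteins and 3 transporters that load vesicles with transmitter. The role named calcium sensors holds all listed synaptotagmins and Doc2 proteins, and not all of them bind calcium.

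Neurons store transmitter in synaptic vesicles, which are held in clusters by synapsins, docked and primed at a protein scaffold called the active zone, and fused with the terminal membrane by SNARE proteins when a synaptotagmin senses calcium. After fusion the SNARE bundle is taken apart by the ATPase NSF and its SNAP adaptors so that its parts can be used again. The transcripts of these proteins are made in the cell body, so cortical RNA reports on neurons whose somata lie in the dissected tissue and not on the axons that enter it.

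C57BL/6 wild-type mice and AcPb-/- mice, labelled as male and aged 2 to 3 months, were compared. AcPb is the IL1 receptor accessory protein splice form of neurons, and the AcPb-/- animals were homozygous offspring of a bred line. Controls (CTL) of each genotype were undisturbed, while sleep disruption (SD) by gentle handling ran for 8 h from ZT20 until every mouse was euthanized at ZT4. The tables hold 3 libraries of each of the 4 groups, which are the controls and the SD mice of either genotype. The labels list 16 samples, of which 4 were not analysed here. Values are listed in the order of replicates 01, 02 and 03 for wild-type controls, 01, 02 and 04 for wild-type SD, 03, 04 and 05 for AcPb-/- controls and 02, 03 and 04 for AcPb-/- SD, and the p-values rest on the spread between these libraries.

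Some features of the libraries bear on every comparison below. Reads counted on genes numbered 26504840 to 41615582 in the 6 controls and 58770286 to 71857505 in the 6 SD libraries, so depth differed with SD. Xist, which is transcribed from the inactive X chromosome of females, had over 1000 reads in 4 of the 6 controls (wild-type replicates 02 and 03, AcPb-/- replicates 04 and 05) and in 0 of the 6 SD libraries. Those 4 controls held 0 to 2 Y-linked reads and the other 8 libraries 5105 to 10593, against the label of male mice for the 4. Il1rap, counted as 1 gene over all of its splice forms, cannot check the AcPb deletion. Within the marker lists, 7 of 10 oligodendrocyte markers were lower after SD in wild-type mice and 2 of 10 in AcPb-/- mice, 4 of 14 striatal neuron markers were lower in wild-type mice and 0 in AcPb-/- mice, and 2 and 4 of 10 pan-neuronal markers were higher. Of 7 endothelial markers 3 were higher and 1 lower in both genotypes, and of 9 microglia markers 1 was higher and 1 lower in wild-type and 4 were lower in AcPb-/- mice. Over all genes 13.2% were higher and 12.2% lower in wild-type mice, and 14.1% and 13.3% in AcPb-/- mice. The summed pan-neuronal level was 345451 to 353722 normalized counts in wild-type controls and 368566 to 400325 after SD. In AcPb-/- mice it was 350207 to 363921 in controls and 389391 to 420391 after SD. In bulk tissue, fewer cells of a type and less RNA per cell cannot be told apart, and the part of these differences in the results below was not tested beyond the values given beside them.

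Levels were first compared between the genes in undisturbed wild-type cortex, as normalized counts per kb of exon (mean ± standard deviation, n = 3). The highest was Snap25, a SNARE of the terminal membrane, at 22249 ± 1136, and the lowest was Sv2c, a vesicle protein best known from the basal ganglia, at 86.2 ± 20.2, a 258-fold span. Below Snap25 came the complexin Cplx1 at 15083 ± 689, the vesicular SNARE Vamp2 at 13261 ± 548, the complexin Cplx2 at 12887 ± 1135, synaptophysin (Syp) at 12882 ± 425 and the synchronous calcium sensor Syt1 at 12335 ± 289. Vamp2, Cplx2 and Syp were closer to each other than their standard deviations, so their order is not resolved. The vesicular glutamate transporter Slc17a7 (VGLUT1) stood at 11983 ± 953, above the GABA transporter Slc32a1 (VGAT) at 1552 ± 94.1 and the second glutamate transporter Slc17a6 (VGLUT2) at 359 ± 7.15. The reads behind a value ran from 97 (Syt10) to 285310 (Snap25) in a library. Per-length levels depend on the exon model, since the length used is the union of annotated exons.

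**Figure D1:**
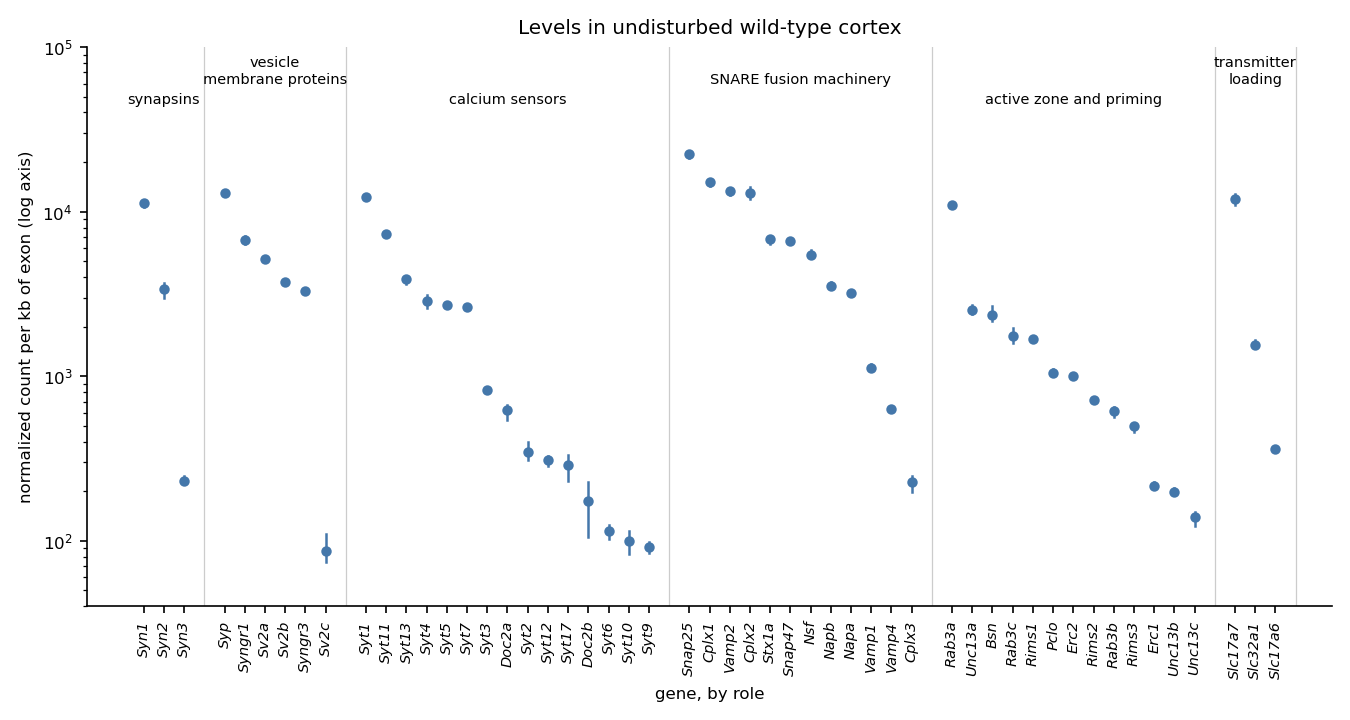
Level of each of the 52 genes in the 3 undisturbed wild-type libraries, in normalized counts per kb of exon on a log axis, ordered within each role. Points are means and lines run from the lowest to the highest library; Snap25 is highest and Sv2c lowest.

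SD was compared with undisturbed conditions within each genotype. In wild-type mice 16 of the 52 genes passed the threshold (limma adjusted p under 0.05 over all genes), 9 higher and 7 lower after SD, which is 30.8% of the genes against 25.4% of all 20417 genes tested. In AcPb-/- mice 16 of 52 passed, 8 higher and 8 lower, against 27.4% of 20574 genes. With reads thinned to the smallest library, 14 of the 52 passed in each genotype. Over all genes 4415 of 19953 then passed in wild-type and 5074 of 20109 in AcPb-/- mice. In the main limma fits both shares lie near the background, whereas other tests called more of the 52. In wild-type mice DESeq2 called 25 of the 52 against 5378 of 20413 genes, and edgeR 20 against 5368 of 20417. In AcPb-/- mice DESeq2 called 20 of the 52 against 5804 of 20562 genes, and edgeR 19 against 5682 of 20574. Whether the count of affected genes sets this group apart from the transcriptome thus depends on the test. The median log2 fold change over the 52 genes was 0.053 in wild-type and 0.088 in AcPb-/- mice, beside -0.0039 and 0.014 over all genes tested. The wild-type median turned to -0.026 with a term for Xist and to -0.017 without the libraries that hold Xist reads, and was 0.024 without SD replicate 02. The control and SD libraries did not overlap for 22 of the genes in wild-type mice (background 40.2%) and for 27 in AcPb-/- mice (background 42.3%).

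Of the genes past the threshold, 11 passed in both genotypes, each in the same direction, which is 21.2% of the 52 against a background of 19.3% of 20013 genes. Those lower after SD were Syngr1, Sv2a, Syt3, Snap47, Stx1a and Slc32a1, and those higher were Syt13, Vamp2, Rims1, Rims2 and Pclo. Syn3, Napa, Unc13a, Rab3b and Erc2 passed in wild-type mice alone, and Syngr3, Sv2c, Syt6, Syt12 and Doc2a in AcPb-/- mice alone, although no gene passed the test of the difference between genotypes given further on. The sign of the fold change was shared by 45 of the 52 genes, against 79.6% of all genes, and 11 of the 16 wild-type genes passed again in AcPb-/- mice, against 74.6% of all genes that passed in wild-type mice. Across the 52 genes the log2 fold changes of the genotypes had a Pearson r of 0.843 (0.615 across all genes), a description over genes, which are not independent replicates.

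**Figure D2:**
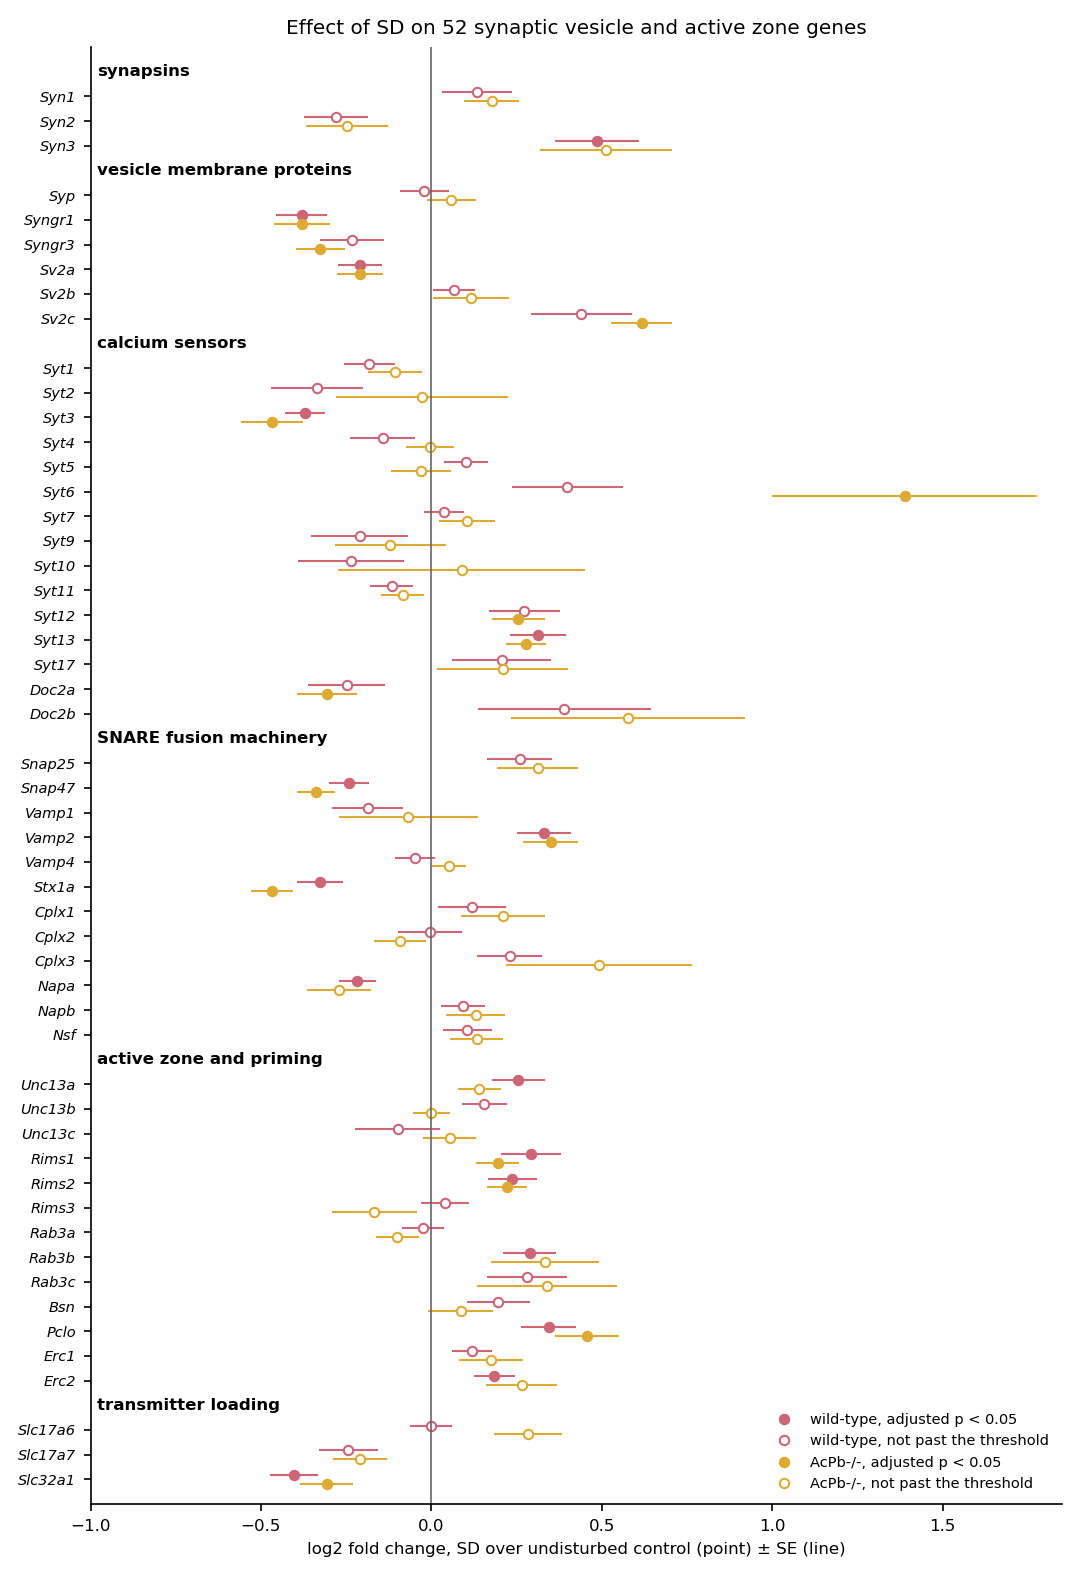
Log2 fold change of SD over undisturbed controls (points) with its SE (lines) for the 52 genes by role, in wild-type (red) and AcPb-/- mice (yellow), 3 libraries a group. Filled points passed an adjusted p of 0.05; most lie within 0.5 of 0, the filled active zone points are all to the right, and Syt6 in AcPb-/- mice, at 1.39, has the widest line.

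Promoters are shown for 2 genes that fell (Stx1a, Syngr1) and 2 that rose (Pclo, Rims1) in both genotypes, to set the upstream sequence of genes that moved in opposite directions side by side. A RefSeq promoter on GRCm38.p6, the build of mm10, matched 39 of the 52 genes (50 promoters), and the 250 bases before the transcription start were searched on both strands. Capitals mark a GC box, GGGGCGGGG on either strand, in Syngr1 and Rims1, and Stx1a and Pclo held none of the motifs searched. Stx1a lies at chr5:135023232-135023481 on the plus strand, Syngr1 at chr15:80091084-80091333 on the plus strand, Pclo at chr5:14514668-14514917 on the plus strand and Rims1 at chr1:22806159-22806408 on the minus strand, each written 5′ to 3′ toward the gene.
Stx1a: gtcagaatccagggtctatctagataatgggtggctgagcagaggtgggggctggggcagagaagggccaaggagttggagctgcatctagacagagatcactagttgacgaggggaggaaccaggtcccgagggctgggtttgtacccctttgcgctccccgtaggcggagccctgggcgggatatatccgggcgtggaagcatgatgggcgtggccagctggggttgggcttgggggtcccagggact
Syngr1: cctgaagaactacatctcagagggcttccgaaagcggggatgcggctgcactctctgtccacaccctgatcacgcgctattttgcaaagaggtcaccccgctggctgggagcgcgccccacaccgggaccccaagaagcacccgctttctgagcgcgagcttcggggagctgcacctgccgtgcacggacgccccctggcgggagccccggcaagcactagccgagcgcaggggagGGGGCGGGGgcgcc
Pclo: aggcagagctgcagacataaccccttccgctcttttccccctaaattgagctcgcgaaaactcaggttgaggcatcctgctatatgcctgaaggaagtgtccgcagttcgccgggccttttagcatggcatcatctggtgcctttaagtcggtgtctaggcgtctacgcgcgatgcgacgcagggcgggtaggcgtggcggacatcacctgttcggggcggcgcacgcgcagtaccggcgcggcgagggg
Rims1: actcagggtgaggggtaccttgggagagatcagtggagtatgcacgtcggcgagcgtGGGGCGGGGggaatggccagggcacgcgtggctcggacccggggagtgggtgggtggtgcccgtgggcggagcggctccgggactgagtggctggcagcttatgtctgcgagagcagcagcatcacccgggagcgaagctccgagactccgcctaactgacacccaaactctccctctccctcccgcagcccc
The GC box was in 32.0% of the genes' 50 promoters (14 genes) and in 10.4% of all 32851 promoters, and the median GC content was 61.2% against 52.4%. The E-box CACGTG was in 16.0% against 6.02%, the AP-1 site TGAGTCA in 4.0% against 4.46%, the cAMP response element TGACGTCA in 2.0% against 1.55% and the EGR site GCGTGGGCG in 2.0% against 0.536%. A match is a description of the letters and not a site in use, and the GC box lay in promoters of 4 genes that rose in at least 1 genotype (Rims1, Rab3b, Unc13a and Syt6), 2 that fell (Syngr1 and Sv2a) and 8 that passed in neither, among them Syp, Rab3a and Slc17a7.

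The active zone and priming genes moved in 1 direction among those called. In wild-type mice 6 of 13 rose and 0 fell, and in AcPb-/- mice 3 of 13 rose and 0 fell, beside backgrounds of 13.2% and 14.1% for higher genes. Pclo encodes Piccolo, a giant scaffold that spans the active zone. Its normalized counts in wild-type mice were 25491, 23260.5 and 24097 in controls and 30925, 33902 and 27856 after SD, a log2 fold change of 0.34 (SE 0.081, limma adjusted p = 0.0121). The AcPb-/- counts were 23070, 20732 and 19766 in controls and 31996, 25952 and 29379.9 after SD, a log2 fold change of 0.46 (SE 0.094, limma adjusted p = 0.00834). Every SD library lay above every control of its genotype, a rise of 26.9% in wild-type and 37.2% in AcPb-/- mice. Rims1, a RIM scaffold that tethers vesicles and calcium channels, measured 13208, 12456 and 12465 in wild-type controls and 16087, 17419 and 13454 after SD, a log2 fold change of 0.29 (SE 0.089, limma adjusted p = 0.0349). The AcPb-/- libraries gave 12709, 11758 and 11649 in controls and 14396, 13707 and 13208 after SD, a log2 fold change of 0.19 (SE 0.063, limma adjusted p = 0.0499). The groups did not overlap in either genotype, but the gap in wild-type mice was narrow, between the highest control and SD replicate 04. Its relative Rims2 rose by 17.9% (adjusted p = 0.0337, limma) and 16.6% (adjusted p = 0.0246, limma).

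Unc13a, the main Munc13 priming factor of forebrain glutamatergic terminals, measured 32132, 30864 and 35096 in wild-type controls and 41510.1, 39339 and 36245 after SD, a log2 fold change of 0.26 (SE 0.078, limma adjusted p = 0.036). The AcPb-/- values were 30835, 30176 and 30347 in controls and 34492, 32576 and 33680 after SD, a log2 fold change of 0.14 (SE 0.062, limma adjusted p = 0.129). The groups were separate in both genotypes although the second test missed the threshold. Rab3b, a vesicle GTPase, measured 2301, 2342 and 2039.5 in wild-type controls and 2498, 2781 and 2882 after SD, a log2 fold change of 0.29 (SE 0.077, limma adjusted p = 0.0208). Its AcPb-/- controls were spread from 1612 to 2697, across the SD libraries, with an adjusted p of 0.159 (limma). Erc2, an ELKS family scaffold, rose by 13.7% in wild-type mice (adjusted p = 0.047, limma) and had a log2 fold change of 0.27 in AcPb-/- mice that missed the threshold. Bsn, the Bassoon partner of Piccolo, measured 43570.1, 37197 and 35349.7 in wild-type controls and 46422, 45875 and 40439.8 after SD, a log2 fold change of 0.20 (SE 0.093, limma adjusted p = 0.153). Its AcPb-/- controls held 43743, 37346 and 37776 and the SD libraries 46276, 38657 and 41283, a log2 fold change of 0.086 (SE 0.095, limma adjusted p = 0.557). Both pairs of groups overlapped, since control replicate 01 of the wild-type and 03 of the AcPb-/- mice exceeded at least 1 SD library, and with a term for Xist the AcPb-/- value was -0.079. The remaining members, Unc13b, Unc13c, Rims3, Rab3a, Rab3c and Erc1, passed in neither genotype, with log2 fold changes from -0.098 (Unc13c) to 0.28 (Rab3c) in wild-type mice and from -0.17 (Rims3) to 0.34 (Rab3c) in AcPb-/- mice.

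The active zone counts changed with single libraries, as did the counts over all genes. Of all genes, 2836 of 20286 passed without wild-type SD replicate 02 and 3417 of 20508 without AcPb-/- control replicate 04. In wild-type mice the 6 active zone calls became 0 when SD replicate 02 was left out, 1 for control replicate 02, 2 for SD replicate 01 and 3 for control replicate 03, and in AcPb-/- mice the 3 calls became 1 when control replicate 04, SD replicate 02 or SD replicate 04 was left out. Averaged over genotypes in a limma fit of the 12 libraries, 6 of 13 rose, against 21.2% of all genes. When only libraries without Xist reads were kept 2 of 13 (Pclo and Rims2) rose, a share near the 15% of all genes.

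Among the vesicle membrane proteins the calls ran mostly downward. In wild-type mice 2 of 6 fell and 0 rose, and in AcPb-/- mice 3 of 6 fell and 1 rose, beside 12.2% and 13.3% lower genes in the background. Syngr1, a synaptogyrin with 4 membrane spans like those of synaptophysin, had 35417, 33230.5 and 31531 normalized counts in wild-type controls and 24231, 25024 and 27743 after SD, a log2 fold change of -0.38 (SE 0.075, limma adjusted p = 0.0055). Its AcPb-/- counts were 33800.1, 30942 and 28935 in controls and 22474, 25461 and 24017 after SD, a log2 fold change of -0.38 (SE 0.081, limma adjusted p = 0.00967). All SD libraries lay below all controls, and Syngr1 fell by 23.2% in wild-type and fell by 23.1% in AcPb-/- mice. Syngr3, another synaptogyrin, measured 7393, 7240.4 and 6491 in AcPb-/- controls and 5324, 5519.9 and 6004 after SD, a log2 fold change of -0.33 (SE 0.072, limma adjusted p = 0.0113). In wild-type mice its groups overlapped through SD replicate 04 and the log2 fold change of -0.23 missed the threshold (adjusted p = 0.101, limma). Sv2a, the binding site of the antiseizure drug levetiracetam, fell by 13.5% in both genotypes (adjusted p = 0.0372 and 0.0482, limma), with no overlap between groups. Its call held in 1 of 6 wild-type and 0 of 6 AcPb-/- fits that left out 1 library, with adjusted p of 0.0123 to 0.151 and 0.0522 to 0.135.

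Sv2c moved the other way. It measured 739, 643 and 628 in AcPb-/- controls and 1102, 962 and 1017 after SD, a log2 fold change of 0.62 (SE 0.089, limma adjusted p = 0.00204), and all SD libraries were higher. In wild-type mice the controls were 1094, 748 and 741 and the SD libraries 1129, 1321 and 1016, so that control replicate 01 fell among the SD values and a log2 fold change of 0.44 (SE 0.15, limma adjusted p = 0.0524) missed the threshold. The same control had the highest level of the striatal marker Adora2a, at 814 normalized counts (12 libraries scaled together) against 489 and 99.5 in the other 2 wild-type controls and 94.0 to 101 in the wild-type SD libraries. Adora2a was 94.8 to 284 in AcPb-/- controls and 72.8 to 271 after SD. The part of striatal tissue in the Sv2c values was not tested. Syp, the marker protein of presynaptic terminals, measured 71649.9, 68505 and 67309 in wild-type controls and 68125, 69065 and 67319 after SD, a log2 fold change of -0.02 (SE 0.071, limma adjusted p = 0.861). Synaptophysin in AcPb-/- mice measured 65578, 64826 and 62050.3 in controls and 65766, 66495 and 68115 after SD, a log2 fold change of 0.058 (SE 0.073, limma adjusted p = 0.6). Its 95% intervals, -0.18 to 0.14 and -0.11 to 0.22 on the log2 scale, exclude a 1.5-fold change in either direction. Of Syp, 16.8% of exon bases overlap Gm14703 on the opposite strand. Sv2b had log2 fold changes of 0.067 and 0.12 and passed in neither genotype.

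In the SNARE fusion machinery 1 of 12 genes rose and 3 fell in wild-type mice, and 1 rose and 2 fell in AcPb-/- mice. These 33.3% and 25% lie near the 25.4% and 27.4% of all genes. Vamp2, the vesicle SNARE of fast release, measured 53804, 52578 and 49715 in wild-type controls and 66657, 69558 and 60355 after SD, a log2 fold change of 0.33 (SE 0.079, limma adjusted p = 0.013). AcPb-/- controls measured 54077, 51809.6 and 51862 and SD libraries 72813, 63597 and 64986, a log2 fold change of 0.35 (SE 0.081, limma adjusted p = 0.0137). Every SD library exceeded every control, by 25.8% and 27.5% in the fitted means. Stx1a, its target SNARE on the terminal membrane, measured 19552, 19021 and 17384 in wild-type controls and 15241, 14166 and 15177 after SD, a log2 fold change of -0.33 (SE 0.067, limma adjusted p = 0.00631). Stx1a in AcPb-/- mice measured 17721, 18145 and 18503 in controls and 13136, 13777 and 12402 after SD, a log2 fold change of -0.47 (SE 0.062, limma adjusted p = 0.00141). All SD libraries were below all controls in both genotypes. Snap25, the other target SNARE, measured 147494, 155838 and 163642 in wild-type controls and 181935, 200429 and 176565 after SD, a log2 fold change of 0.26 (SE 0.094, limma adjusted p = 0.069). Its AcPb-/- libraries measured 121232, 140269 and 153957 in controls and 176070, 181312 and 156677 after SD, a log2 fold change of 0.31 (SE 0.12, limma adjusted p = 0.0867). The SD libraries were all higher in both genotypes, yet neither test passed the threshold. In the fit averaged over genotypes the unadjusted p of Snap25 was under 0.05 (limma).

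Snap47, a widely expressed relative of Snap25, measured 17933, 18180.5 and 17913 in wild-type controls and 14698, 15088 and 15962 after SD, a log2 fold change of -0.24 (SE 0.059, limma adjusted p = 0.0143). Snap47 in AcPb-/- mice measured 16968, 16984 and 16907 in controls and 12933, 13805 and 13498 after SD, a log2 fold change of -0.34 (SE 0.056, limma adjusted p = 0.00331). Its controls were tightly grouped and all SD libraries were lower. Napa, the alpha-SNAP adaptor that brings NSF to the spent SNARE complex, fell by 14.0% in wild-type mice (adjusted p = 0.0162, limma) and had a log2 fold change of -0.27 in AcPb-/- mice (adjusted p = 0.0621, limma). Its partners Napb and Nsf had values of 0.092 and 0.10 in wild-type and 0.13 and 0.13 in AcPb-/- mice, past the threshold in neither. The complexins Cplx1, Cplx2 and Cplx3, which clamp and promote fusion, and the SNAREs Vamp1 and Vamp4 did not pass in either genotype. Of Snap47, 11.6% of exon bases overlap Jmjd4 on the opposite strand, and whether the counting used strand is not given in the sources used here.

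The balance of related genes was described as shares of their summed level per kb of exon, which do not depend on the scaling of a library. Snap47 made up 21.9% to 23.7% of the Snap25 and Snap47 sum in wild-type controls and 16.2% to 18.8% after SD, and 22.0% to 26.4% and 15.8% to 18.1% in AcPb-/- mice. Pclo made up 27.1% to 28.3% of the Piccolo and Bassoon sum in AcPb-/- controls and 32.3% to 33.6% after SD, while its wild-type shares of 29.3% to 32.6% and 32.1% to 34.4% overlapped. Unc13a held 87.6% to 89.0% of the Munc13 sum in wild-type controls and 89.2% to 89.9% after SD.

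Most calcium sensors did not pass. In wild-type mice 1 of 15 rose and 1 fell, 13.3% of the role against a background of 25.4%, and in AcPb-/- mice 3 rose and 2 fell, 33.3% against 27.4%. Syt3, a synaptotagmin of high calcium affinity known for internalizing AMPA receptors, measured 2590.4, 2718 and 2649 in wild-type controls and 2070.2, 2096 and 1988 after SD, a log2 fold change of -0.37 (SE 0.057, limma adjusted p = 0.00181). AcPb-/- controls measured 2890.4, 2628 and 2656 and SD libraries 1856, 2268 and 1814, a log2 fold change of -0.47 (SE 0.091, limma adjusted p = 0.00675). Syt3 fell by 22.7% in wild-type and fell by 27.6% in AcPb-/- mice, with no overlap of groups. Syt13, which lacks the residues that bind calcium, measured 15539.8, 14035 and 15593 in wild-type controls and 17082, 18266 and 20907 after SD, a log2 fold change of 0.31 (SE 0.082, limma adjusted p = 0.0196). Syt13 in AcPb-/- mice measured 14049.5, 14174 and 13892 in controls and 16758, 17921 and 16406 after SD, a log2 fold change of 0.28 (SE 0.059, limma adjusted p = 0.00961). The groups were apart in both genotypes, with SD higher. Syt1, the sensor of synchronous release, measured 106531, 103105 and 108219 in wild-type controls and 91978, 94903 and 93324 after SD, a log2 fold change of -0.18 (SE 0.075, limma adjusted p = 0.106). The AcPb-/- controls measured 95027, 98098 and 93594 and the SD libraries 91479.9, 86520 and 88196, a log2 fold change of -0.11 (SE 0.079, limma adjusted p = 0.365). Its SD libraries were all lower in both genotypes and neither test passed, while the fit averaged over genotypes gave a log2 fold change of -0.15 (SE 0.047, limma adjusted p = 0.0254).

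Syt6 had the largest fold change of the 52 genes, in AcPb-/- mice. It measured 861, 288 and 262 in controls and 914, 1244 and 1033 after SD, a log2 fold change of 1.39 (SE 0.39, limma adjusted p = 0.0294). All SD libraries were higher, but control replicate 03 lay close to the lowest of them and far above the other 2 controls. Of the 4 layer 6b and subplate markers in the tables, Nxph4, Ctgf and Moxd1 were ordered like Syt6 in these controls and Svil was not. Replicates 03, 04 and 05 held 112, 40.6 and 11.3 normalized counts of Nxph4, 1599, 844 and 536 of Ctgf, 390.1, 367 and 236 of Moxd1 and 519, 510.3 and 604 of Svil (12 libraries scaled together). In the AcPb-/- SD libraries Nxph4 was 21.7, 100 and 90.8, and Ctgf 891, 1588 and 2169. The 4 markers summed to 1388 to 2621 in AcPb-/- controls and 1863 to 3322 after SD, and 0 of 4 passed. Replicate 03 is also the AcPb-/- control without Xist reads. The Syt6 call held in 1 of 6 fits that left out 1 library, the one without control replicate 03 (log2 fold change 1.94), and against that control alone the log2 fold change was 0.29. Its wild-type values were 752, 617 and 687 in controls and 831, 1214 and 726 after SD, with a log2 fold change of 0.40 that missed the threshold (adjusted p = 0.0993, limma). The part of layer 6b tissue in these values was not tested.

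**Figure D3:**
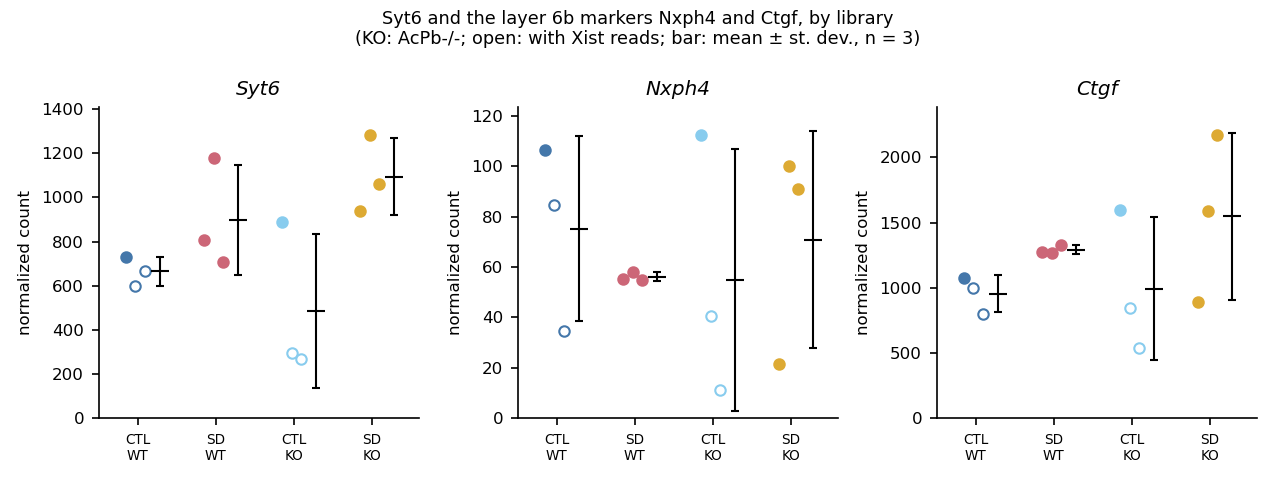
Normalized counts (12 libraries scaled together) of Syt6 and of the layer 6b markers Nxph4 and Ctgf in each library of the 4 groups, with mean ± standard deviation (n = 3); open points are libraries with Xist reads. AcPb-/- control replicate 03, the filled point of its group, is the highest of its group for all 3 genes.

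Doc2a, a soluble sensor with C2 domains that acts in asynchronous and spontaneous release, measured 2001, 1881 and 1677 in AcPb-/- controls and 1437, 1414 and 1643 after SD, a log2 fold change of -0.31 (SE 0.087, limma adjusted p = 0.0311). In wild-type mice its groups overlapped, with a log2 fold change of -0.25 (adjusted p = 0.14, limma). Of Doc2a, 39.4% of exon bases overlap Ino80e on the opposite strand, a gene that rose in both genotypes (log2 fold changes of 0.61 and 0.65), so the Doc2a counts are uncertain where strand was not used. Syt12, a vesicle synaptotagmin that does not bind calcium, rose by 19.4% in AcPb-/- mice (adjusted p = 0.0397, limma) and had a log2 fold change of 0.27 in wild-type mice (adjusted p = 0.0808, limma). Of Syt12, 17.2% of exon bases overlap A930001C03Rik on the opposite strand. The asynchronous sensor Syt7 had log2 fold changes of 0.038 and 0.10, within 95% intervals of -0.091 to 0.17 and -0.08 to 0.29. The other 8 genes of this role, Syt2, Syt4, Syt5, Syt9, Syt10, Syt11, Syt17 and Doc2b, passed in neither genotype. Among them Doc2b had the widest wild-type interval, -0.17 to 0.95.

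The synapsins, which tether the reserve pool of vesicles, gave 1 call. Syn3 measured 3114, 2836 and 2855 in wild-type controls and 4682, 4588 and 3227 after SD, a log2 fold change of 0.49 (SE 0.12, limma adjusted p = 0.0169). All SD libraries were higher, with SD replicate 04 close to the controls. In AcPb-/- mice the groups overlapped at 2339.9, 2843 and 2757 and 5243, 2806 and 3621, a log2 fold change of 0.51 that missed the threshold (adjusted p = 0.0828, limma). Timp3 lies within Syn3 on the opposite strand and covers 14.1% of its exon bases. Timp3 had log2 fold changes of 0.13 in wild-type (adjusted p = 0.13, limma) and 0.26 in AcPb-/- mice (adjusted p = 0.0428, limma). The Syn3 counts are thus uncertain where strand was not used. Syn1, the most abundant synapsin, measured 40018, 38086 and 36037 in wild-type controls and 44697, 46239 and 35071 after SD, a log2 fold change of 0.13 (SE 0.10, limma adjusted p = 0.387). Syn1 in AcPb-/- mice measured 37595, 36459 and 37883 in controls and 46653, 40623 and 39619 after SD, a log2 fold change of 0.18 (SE 0.08, limma adjusted p = 0.14). Its groups overlapped in wild-type mice through SD replicate 04, and the SD libraries were all higher in AcPb-/- mice. Syn2 had negative log2 fold changes of -0.28 and -0.25 that passed in neither genotype (adjusted p = 0.0525 and 0.168, limma).

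Of the transporters that fill vesicles, Slc32a1, which loads GABA and glycine, measured 4778, 4259.6 and 4379.9 in wild-type controls and 3464, 3559 and 3121 after SD, a log2 fold change of -0.40 (SE 0.07, limma adjusted p = 0.0031). Slc32a1 in AcPb-/- mice measured 4076, 3830.2 and 4047 in controls and 3195, 3578 and 2915 after SD, a log2 fold change of -0.31 (SE 0.078, limma adjusted p = 0.0204). Slc32a1 fell by 24.4% in wild-type and fell by 19.2% in AcPb-/- mice, with every SD library below every control. The call held in 6 of 6 wild-type and 3 of 6 AcPb-/- fits that left out 1 library. The 10 listed cortical interneuron markers summed to 47194 to 50055 normalized counts in wild-type controls and 55661 to 56566 after SD. In AcPb-/- mice they summed to 43898 to 52580 in controls and 45686 to 49320 after SD. The 10 markers went both ways, with 5 positive and 5 negative log2 fold changes in wild-type mice (4 higher past the threshold) and 4 positive and 6 negative in AcPb-/- mice (1 higher and 1 lower past it). Of the GABA synthesis genes, Gad1 had log2 fold changes of -0.053 and 0.073 and passed in neither genotype, while Gad2 rose in both (0.19, adjusted p = 0.0455, and 0.26, adjusted p = 0.0354, limma). Gad1 and Gad2 were named after their values were seen. Of Slc32a1, 24.9% of exon bases overlap the predicted gene Gm14205 on the opposite strand. Slc17a7, the glutamate transporter of cortical neurons, measured 70862, 68074 and 60741 in wild-type controls and 57403, 59578 and 51634 after SD, a log2 fold change of -0.24 (SE 0.087, limma adjusted p = 0.0662). Its AcPb-/- values were 73614, 67335 and 64404 and 58559.7, 60303 and 58540.4, a log2 fold change of -0.21 (SE 0.08, limma adjusted p = 0.086). The SD libraries were all lower in both genotypes and neither test passed, while the fit averaged over genotypes gave a log2 fold change of -0.23 (SE 0.059, limma adjusted p = 0.00719). Slc17a6 had log2 fold changes of -0.0018 and 0.28 and passed in neither genotype.

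**Figure D4:**
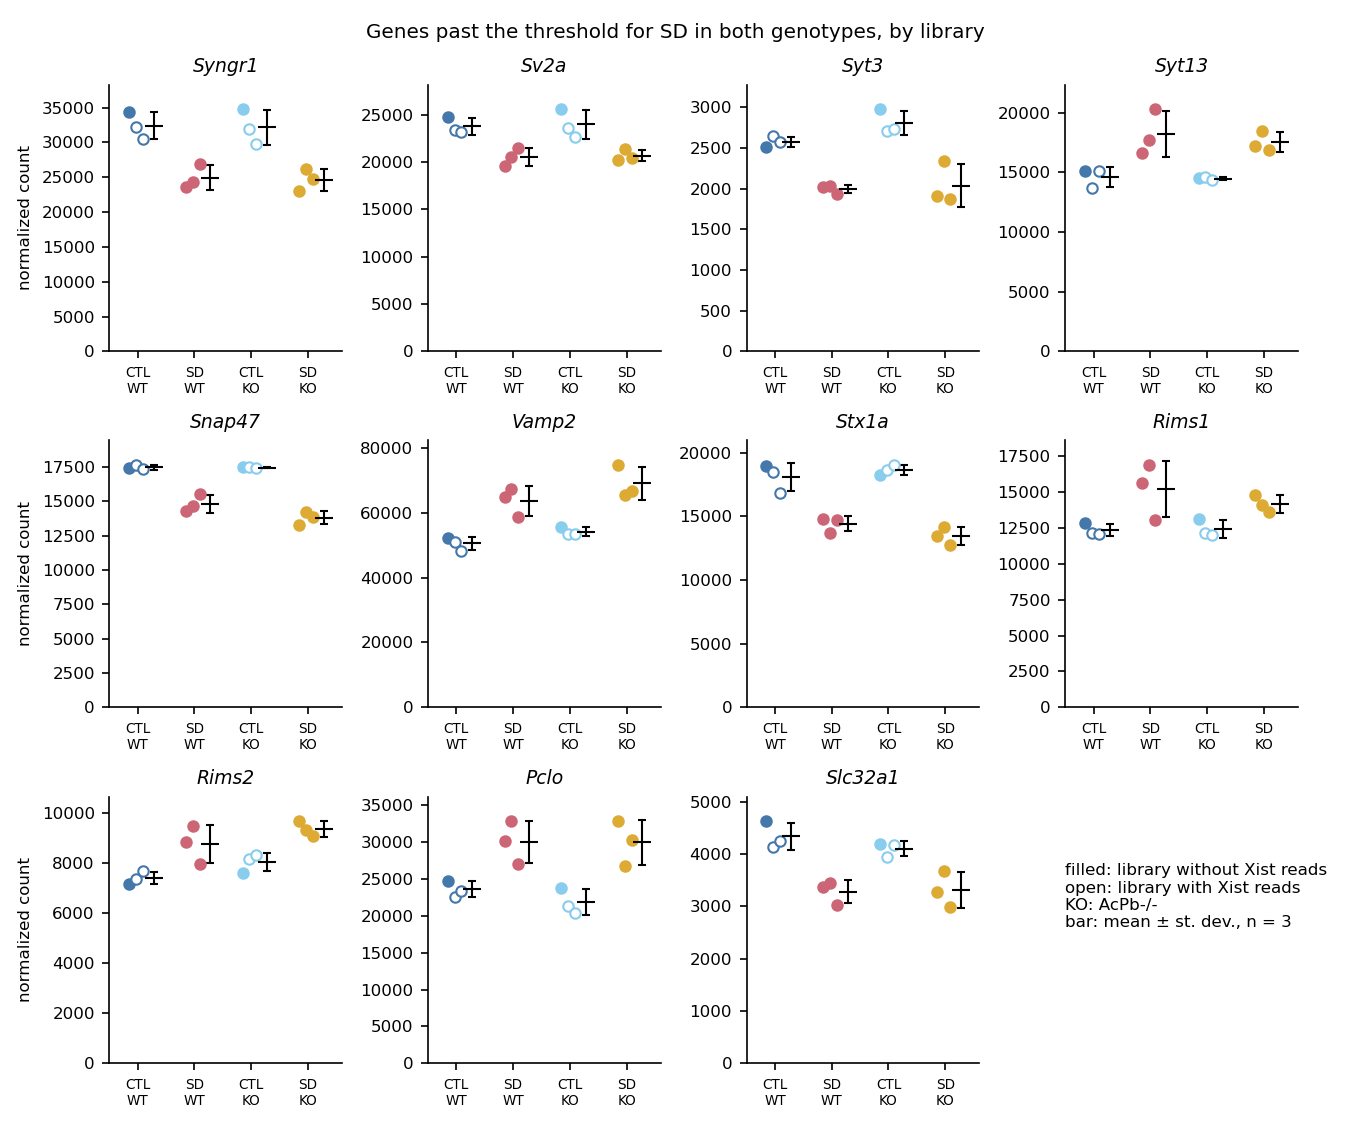
Normalized counts (12 libraries scaled together, axes from 0) of the 11 genes past the threshold for SD in both genotypes, with mean ± standard deviation (n = 3); open points are libraries with Xist reads. For each gene the SD points of a genotype lie wholly above or wholly below its control points.

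When each library was left out in turn, Syngr1, Stx1a and Syt3 stayed past the threshold in 6 of 6 fits in both genotypes, and so did Slc32a1 in wild-type mice and Pclo, Snap47, Syt13 and Sv2c in AcPb-/- mice. In wild-type mice Pclo and Syt13 lost the call without control replicate 02 (adjusted p up to 0.0638 and 0.0956, limma) or SD replicate 02. Rab3b lost it without control replicate 03 or SD replicate 02 (up to 0.0829). Snap47, Vamp2 and Syn3 lost it without control replicate 02, SD replicate 01 or SD replicate 02 (up to 0.071, 0.0671 and 0.0792). Rims1, Rims2, Unc13a, Napa and Erc2 lost it in 4 or 5 of 6 fits, with limma adjusted p up to 0.176. In AcPb-/- mice Vamp2 lost the call without control replicate 04 (adjusted p = 0.0611, limma) and Syngr3 without control replicate 04 or SD replicate 02 (up to 0.0525). Slc32a1 lost it without control replicate 05, SD replicate 02 or SD replicate 04 (up to 0.0742), and Rims1, Rims2, Syt12 and Doc2a in 4 or 5 of 6 fits.

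The SD effect averaged over genotypes, from a limma fit of all 12 libraries, placed 25 of the 52 genes past the threshold, 13 higher and 12 lower, against 41.5% of 20978 genes (21.2% higher and 20.3% lower). The smallest adjusted p was that of Stx1a, 1.67e-05, with a log2 fold change of -0.40 (SE 0.044). When only the 8 libraries without Xist reads entered the fit, 2 controls against 6 SD libraries, 15 genes passed, 5 higher and 10 lower, against 28.5% of all genes. Of the 11 genes called in both genotypes, 10 passed in that fit and all 11 kept their sign, the exception being Rims1 (log2 fold change 0.17, adjusted p = 0.175, limma). Stx1a stood at -0.42, Syngr1 at -0.48, Syt3 at -0.45, Slc32a1 at -0.42, Sv2a at -0.29 and Snap47 at -0.29 there, and Pclo at 0.30, Vamp2 at 0.29, Rims2 at 0.29 and Syt13 at 0.27. Fitted within 1 genotype without the libraries that hold Xist reads, 1 control was left against 3 SD libraries. The median log2 fold change over the 52 genes was then -0.017 in wild-type and 0.031 in AcPb-/- mice. All 16 genes past the threshold in the main fit of each genotype kept their direction. With 1 control left, the number of genes past the threshold cannot be set against that of the main fit. That control is assumed in this fit to vary like the SD libraries.

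**Figure D5:**
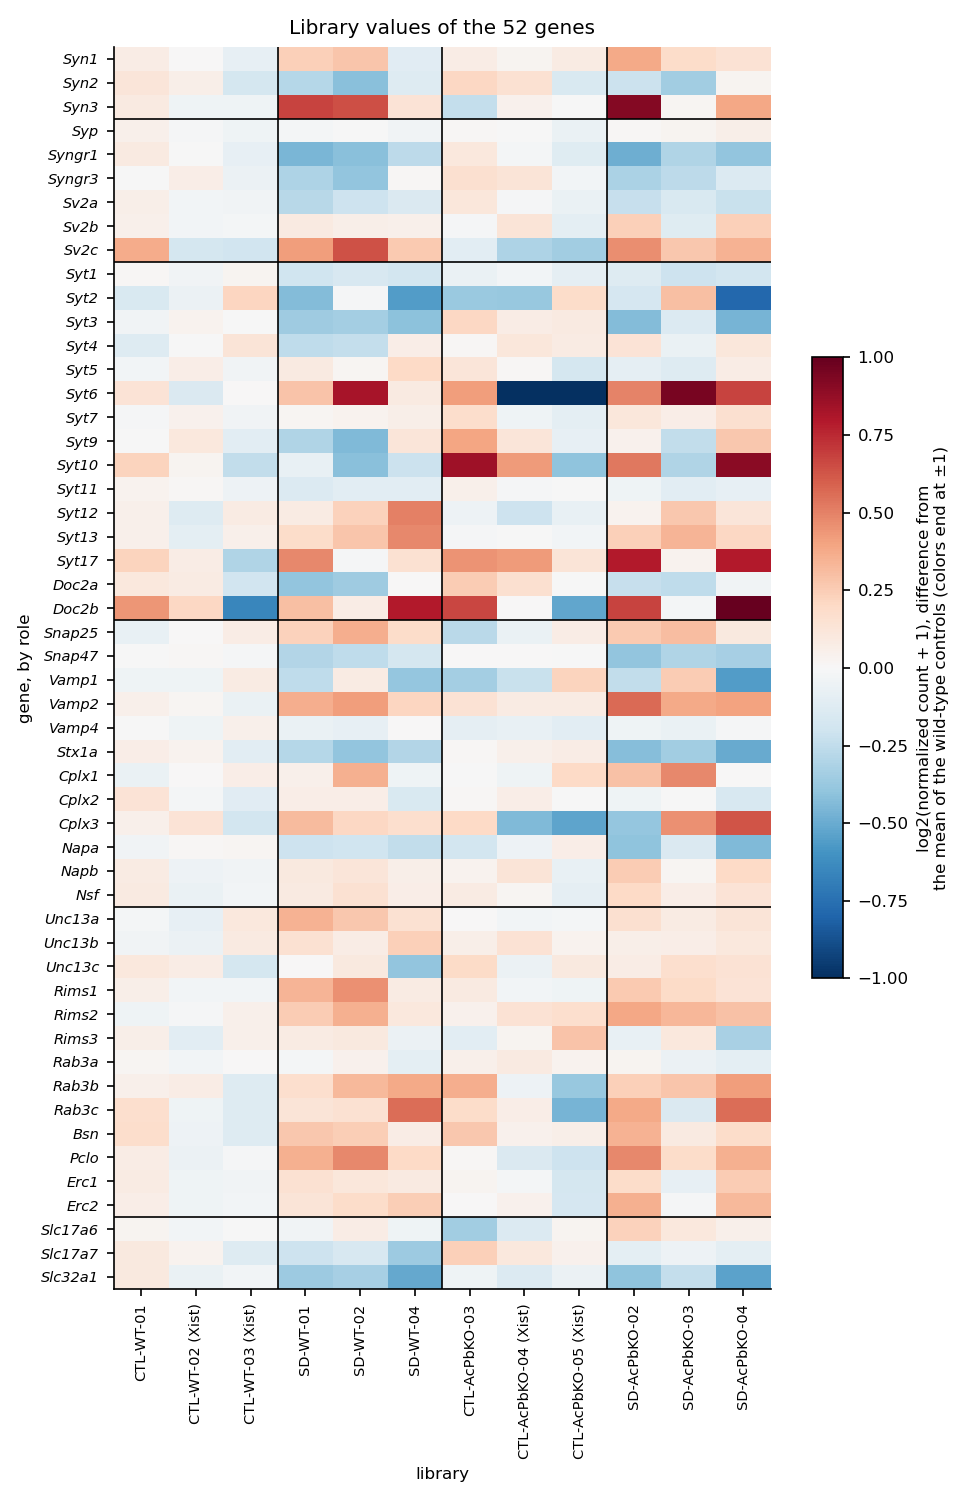
Each of the 52 genes (rows, by role) in each of the 12 libraries (columns), as log2(normalized count + 1) minus the mean of the 3 wild-type controls; red is higher, blue lower, and colors end at 1 and -1. Rows such as Stx1a, Syngr1, Snap47 and Slc32a1 are blue in all 6 SD columns, whereas Syt6, Syt10, Doc2b and Cplx3 vary among libraries of 1 group.

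The genotypes were compared under each condition. Between undisturbed AcPb-/- and wild-type mice 0 of the 52 genes passed in limma (background 0.0197%), with 1 at an unadjusted p under 0.05, and edgeR and DESeq2 called 0. That gene was Syt17, with a log2 fold change of 0.33 (limma adjusted p = 0.551). After SD 0 of the 52 passed (background 0.0145%, with 0.00485% higher and 0.0097% lower), again with 1 at an unadjusted p under 0.05 and 0 called by edgeR or DESeq2. It was Syt10, with a log2 fold change of 0.61 (adjusted p = 0.805, limma). The 95% interval of the genotype difference lay inside a 1.5-fold change for 47 of the 52 genes in controls and for 46 after SD. Those with wider limits in controls were Syt6, Syt10, Syt17, Doc2b and Cplx3. Without AcPb-/- control replicate 03, Syt6 passed as lower in AcPb-/- controls. That fit called 168 of 20103 genes, 48 higher and 120 lower, against 4 of 20273 in the main fit.

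Whether SD acted differently in the genotypes was tested by an interaction term over the 12 libraries. It passed for 0 of the 52 genes and for 0 of 20978 genes in limma, with 1 of the 52 at an unadjusted p under 0.05. edgeR called 0 genes and DESeq2 called 1 gene, not among the 52. That member was Slc17a6, with a difference of 0.28 (95% interval 0.026 to 0.54, limma adjusted p = 0.986). The largest difference was that of Syt6, 0.99 (95% interval -0.072 to 2.04, adjusted p = 0.986, limma). The interval lay inside a 1.5-fold difference for 41 of the 52 genes, and a difference of 1.5-fold or more is not excluded for the other 11. For the 10 genes called in 1 genotype alone, a difference between genotypes was thus not shown. The last table, AcPb-/- after SD against undisturbed wild-type, shares both groups with the comparisons above and had 15 of 52 genes past the threshold, 7 higher and 8 lower, against 27.7% of 20560 genes (14.1% higher and 13.6% lower, groups apart for 42.4%).

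Beyond the 52 genes, 109 other presynaptic genes were counted from fixed lists of fusion, docking and scaffold genes (40), vesicle membrane and transmitter handling genes (34) and vesicle recycling genes (35). In wild-type mice 35 passed, 18 higher and 17 lower, 32.1% against the 25.4% of all genes, and in AcPb-/- mice 36 passed, 16 higher and 20 lower. By list, 14, 13 and 8 passed in wild-type mice and 14, 11 and 11 in AcPb-/- mice. Among those past the threshold, the largest rises in wild-type mice were those of Hspa8, the chaperone that uncoats clathrin vesicles (0.83, adjusted p = 0.000338, limma), Synj2, a phosphoinositide phosphatase (0.73), and Sypl2, a synaptophysin relative (0.52). The largest falls past the threshold were those of Lin7b, a PDZ adaptor (-0.94, adjusted p = 0.000271, limma), Synpr, the synaptophysin relative synaptoporin (-0.62), and Svop, an SV2-related vesicle protein (-0.57). In AcPb-/- mice Hspa8, Synj2, Lin7b and Svop passed again at 0.98, 0.81, -0.99 and -0.69, while Sypl2 (0.29) and Synpr (-0.069) did not pass.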

How the data were processed

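RNA was taken from the somatosensory cortex of mice, and poly(A) libraries were made with a stranded kit and sequenced. Per the submitters' processing notes, the tools were bcl2fastq, HISAT2 2.2.1, featureCounts and DESeq2 1.31.16 with the mm10 genome; whether counting used strand is not given in the sources used here. The authors deposited 5 pairwise tables whose signal is read counts divided by a DESeq2 size factor (normalized counts), scaled separately in each table. Each table also holds the authors' own base means, log2 fold changes, errors, test scores and p-values, which were not used. Of 732630 deposited values, 100.0% were within 0.01 of whole reads once the size factor was undone.

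The 52 genes and the marker and presynaptic lists were chosen with earlier results of these data known. After genes without any read in a table were dropped, the rest were tested on log2(normalized count + 1) with limma 3.58.1 (trend, R 4.3.3) and Benjamini-Hochberg adjustment over all genes of a table, the threshold being an adjusted p of 0.05. Fold changes are on that scale and understate changes of low genes. Interactions and averages over genotypes came from 1 fit of 12 libraries rescaled together. Values in every library are given for up to 12 genes past the threshold in each SD comparison, by size, and for the textbook member of each role, and from the other presynaptic genes the 3 highest and 3 lowest fold changes among those past the threshold in wild-type mice. Alternatives were pseudocounts of 0.1 and 10, a mean of at least 10, edgeR 4.0.16 and DESeq2 1.42.0 on recovered reads, thinning to 26504840 reads, a joint fit, a term for Xist, only libraries without Xist, a replicate block and leaving out each library. Because the files held normalized values and not counts, limma was the main test. The scripts were tested on simulated data. No 2 libraries agreed within sampling noise. Where 1 control remained, its spread was assumed to be that of the SD libraries. P-values measure the spread between these libraries. Python 3.11.15 was used for tables and figures.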

Additional observations from a re-analysis of the deposited data

How the results depend on the processing

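Of the values recomputed for single genes, 531 kept their direction and side of the threshold, 164 lost it, 21 gained it and 4 changed sign. Under every alternative, each of the 16 genes past the threshold for SD in wild-type and in AcPb-/- mice kept its direction. The count for SD in wild-type mice (16) was 25 by DESeq2. It ranged from 5 to 24 when 1 library was left out (5 without control replicate 02, 24 without SD replicate 04). The count in AcPb-/- mice (16) ranged from 8 (without control replicate 04) to 16 (without SD replicate 03) when 1 library was left out. Over all genes those fits called 3417 of 20508 and 5412 of 20374. Beside the wild-type counts, DESeq2 called 5378 of 20413 genes over the whole table. The fit without control replicate 02 called 2699 of 20308 genes, and the fit without SD replicate 04 called 6222 of 20249. The averaged count (25) was 15 without the Xist libraries. The genotype effect in controls (0) ranged from 0 to 1 when 1 library was left out. Syt6 passed without AcPb-/- control replicate 03, a fit that called 168 of 20103 genes. The count for AcPb-/- after SD against wild-type controls (15) ranged from 8 (without wild-type control replicate 02) to 25 (without AcPb-/- SD replicate 03). Over all genes those fits called 3393 of 20472 and 6008 of 20377. The cause of these changes was not tested, beyond the smaller number of libraries where some were left out. The sign changed only for values near 0: Syp in wild-type mice ranged from -0.0395 to 0.0055 with 1 library left out, and Bsn in AcPb-/- mice was -0.079 with the Xist term and -0.060 without the Xist libraries.

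The numbers in the sample titles were checked as a pairing. Deviations of same-numbered control and SD libraries correlated at 0.10 and -0.075 in wild-type and at -0.14 and -0.018 in AcPb-/- mice, those of the SD genotypes at 0.22 and 0.23, and those of the single shared number of the controls at -0.43. With fewer than 3 pairs a comparison and no label that ties numbers to a litter, batch or day, the libraries were treated as sharing only a number. With a replicate block 0 of the 52 genes passed for SD in wild-type and 0 in AcPb-/- mice, where 0 of all genes did. For the averaged effect 24 passed, against 7752 of 20978 genes. For the genotype effect after SD and for the interaction 0 passed, with 0 over all genes. For the genotype effect after SD, 15 of the 52 were at an unadjusted p under 0.05 with the block, against 1 without it. Over all 20621 genes, 2316 were under that limit with the block and 1265 without it. Bsn in AcPb-/- mice was -0.017 with the block. No paired analysis was possible because the controls of the genotypes share 1 number, for the genotype effect in controls.

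The spread between libraries exceeded counting error in every pair of replicates (chi-square per gene 6.6 to 34.2). That value is an average over genes within a group and does not cover single low genes. The part of depth in the SD results was not tested beyond the thinned reads. The 95% interval of the SD effect lay inside a 1.5-fold change for 47 of the 52 genes in wild-type and 39 in AcPb-/- mice. With 3 libraries a group, small differences were not detectable.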
